A study of Mus musculus with 9 samples.

Results

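The genes described here are a group of secreted and membrane-anchored metalloproteinases and their tissue inhibitors: the proteases Mmp2, Mmp3, Mmp12, Mmp13 and Mmp14 and the inhibitors Timp1, Timp2 and Timp3. They were taken by name from the probe annotation of a mouse expression array, and 8 of the array's 27569 named genes, on 10 of its 41174 probes, belonged to the group. Mmp14 and Timp1 had 2 probes each. Of the 8 genes, 6 had a probe well above background in the sample channel on at least 3 of the 9 arrays and entered the fit over 14259 genes. Mmp2 and Mmp3 did not.

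RNA came from 3 female Balb/c athymic mice, which lack a thymus, numbered 832, 833 and 834 in the labels. Each gave 1 array for each of 3 groups. These were an enriched fraction of tumour-infiltrating inflammatory cells (TIC fraction) from ground subcutaneous tumours at day 10 after inoculation of Hepa1-6 cells, blood of day 10, and blood of day 0, taken before the inoculation. Hepa1-6 is a mouse hepatoma line, and all tumours were grown from this 1 line. The TIC fraction is a bulk preparation in which tumour and stromal cells may remain, and its RNA was extracted with a different kit from that of the blood. In such bulk RNA, fewer cells of a type and less RNA per cell cannot be told apart. Each sample was labelled with Cy5 and hybridized with a common Cy3 reference, RNA from blood of a female C57Bl/6 mouse with no treatment, so a value of 0 on the log2 ratio scale means that sample and reference were equally bright after normalization. Sample and reference dyes were not swapped.

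Matrix metalloproteinases (matrixins) are zinc-dependent endopeptidases that cut collagens, elastin, laminins and other matrix proteins, and release growth factors held in the matrix. Most are secreted as inactive proenzymes that other proteases activate, while Mmp14 stays anchored in the plasma membrane. Tissue inhibitors of metalloproteinases (TIMPs) bind the active site of the enzymes. In tumours, macrophages, fibroblasts and cancer cells are all known sources of both classes, and blood cells carry only some of them.

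Several matrixin genes lie next to each other on mouse chromosome 9, and binding sites for AP-1 (dimers of Fos and Jun proteins) near their starts are a known feature of the family. The bases just upstream of the annotated start are shown for the 3 members of this cluster, and for Mmp14 and Timp2, the members whose ratios were highest on the TIC array of mouse 833. The sequences are those of RefSeq on build GRCm38.p6, each 150 bases long, 5′ to 3′ on the gene's strand and ending at the base before the start. They are chr9:7272364-7272513 for Mmp13, chr9:7347224-7347373 for Mmp12 (the one of its 2 annotated starts with a match), chr9:7445672-7445821 for Mmp3, chr14:54431448-54431597 for Mmp14, all on the plus strand, and chr11:118355412-118355561 on the minus strand for Timp2. Capitals mark the AP-1 motif TGANTCA (N is any base) and the TATA box motif TATAAA, searched on both strands.
Mmp13: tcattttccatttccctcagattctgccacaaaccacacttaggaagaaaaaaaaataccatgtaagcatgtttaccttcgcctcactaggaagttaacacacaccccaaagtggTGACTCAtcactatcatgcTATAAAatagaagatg
Mmp12: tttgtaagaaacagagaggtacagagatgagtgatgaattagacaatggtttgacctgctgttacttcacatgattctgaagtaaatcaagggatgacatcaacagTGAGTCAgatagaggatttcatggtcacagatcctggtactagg
Mmp3: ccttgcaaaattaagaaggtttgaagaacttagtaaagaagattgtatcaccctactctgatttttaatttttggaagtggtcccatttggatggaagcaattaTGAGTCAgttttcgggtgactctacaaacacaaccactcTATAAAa
Mmp14: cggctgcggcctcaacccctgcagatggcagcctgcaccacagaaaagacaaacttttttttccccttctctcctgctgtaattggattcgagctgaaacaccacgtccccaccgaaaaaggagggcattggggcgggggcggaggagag
Timp2: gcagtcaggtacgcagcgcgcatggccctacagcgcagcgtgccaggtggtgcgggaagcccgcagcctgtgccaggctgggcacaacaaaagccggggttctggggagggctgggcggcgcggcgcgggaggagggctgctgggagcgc

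Between 250 bases upstream and 50 bases downstream of the start, TGANTCA was found in Mmp13, Mmp12 and Mmp3, with its first base at -35, -44 and -46. TATAAA was found in the same 3 genes, at -16 in Mmp13, at -7 in Mmp3 and, for Mmp12, after the start. Neither motif was in the windows of Mmp14, Timp1, Timp2 or Timp3. The sequence table used had no entry for Mmp2, so its promoter was not searched. Among all 32851 promoters of the table, 2565 (7.81%) held TGANTCA and 4473 (13.6%) held TATAAA. Among 14 other matrixin genes in the table, 5 held TGANTCA (Mmp1a, Mmp1b, Mmp7, Mmp10 and Mmp20). A match describes the letters in this window and was not measured as a binding site.

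Sample signal was brighter across the whole array in the TIC fraction than in blood. In Cy5, 48.2 to 55.1% of spots on TIC arrays were well above background, against 14.2 to 21.0% on day 10 blood arrays and 24.4 to 36.9% on day 0 blood arrays. In the Cy3 reference it was 40.2 to 50.4% on the 9 arrays. The TIC array of mouse 833 stood apart from the other TIC arrays. Across the tested genes the TIC arrays of mice 832 and 834 correlated at 0.989, and that of mouse 833 correlated with them at 0.885 and 0.896. Results that rest on it are given with and without it.

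In the TIC fraction, 5 of the 6 members tested were higher than in day 10 blood and 5 of 6 were higher than in day 0 blood, and none was lower. The 5 were the same genes in both comparisons: Mmp12, Mmp13, Mmp14, Timp1 and Timp3. Over all genes tested, 34.4% were called higher against day 10 blood and 31.7% against day 0 blood. Another 33.2 and 33.7% were called lower, so calls in either direction covered 67.6 and 65.4% of genes. The members' median log2 difference was 1.47 against day 10 blood and 1.63 against day 0 blood, beside medians of 0.07 and 0.01 over all genes tested. Of the 6 blood arrays, 0 for Mmp12, 0 for Mmp13, 1 for Mmp14 and 2 for Timp3 were well above background. These 4 members passed the filter only with the help of their TIC arrays, so the filter favoured a difference for them, and these counts and medians are a description. Without the filter, 5 of 8 members were called higher in each comparison, where 18.1 and 16.6% of all genes were. Both comparisons use the same TIC arrays.

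Among the proteases of the chromosome 9 cluster, Mmp12, the macrophage metalloelastase that degrades elastin, had Cy5 signals of 1874.5, 176 and 1013 on the TIC arrays of mice 832, 833 and 834. On the 6 blood arrays its signals were 44.6 to 47.7, close to the local background there of 42.5 to 47. All 3 TIC arrays were well above background and no blood array was, so the groups did not overlap, although the TIC array of mouse 833 was far dimmer than the other TIC arrays. Its log2 ratios were 1.91, 0.44 and 1.94 in the TIC fraction, -0.04, -0.04 and -0.10 in day 10 blood and -0.17, 0.01 and -0.06 in day 0 blood. The log2 difference was 1.50 ± 0.35 (SE of the limma fit) against day 10 blood (adjusted p = 0.00515) and 1.51 ± 0.35 against day 0 blood (adjusted p = 0.0053). Because no blood array was well above background, no exact size can be given.

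Where a group had no array well above background, a lower limit of the fold was sought in Cy5 values after loess and Aquantile normalization. Each blood array entered at its own value or, where that was dimmer, at the dimmest signal that counted as well above background. Such values may carry dye bias. For Mmp12, Mmp13 and Mmp14 this value exceeded the fold of the log2 ratio difference (3.48 beside 2.82 for Mmp12, 3.28 beside 3.02 for Mmp13 and 3.42 beside 3.37 for Mmp14 against day 10 blood), so it bounded nothing on the ratio scale and is not given as a limit. The single-channel folds given below hold for that scale only and have no SE. Where the blood values were not dimmer than that dimmest signal, such a fold is the observed one and not a limit.

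Mmp13, collagenase 3, the main interstitial collagenase of mice, lies upstream of Mmp12 in the cluster and followed the same order of mice. Its Cy5 signals were 1616, 402 and 703 on the TIC arrays of mice 832, 833 and 834, against 44.4 to 48.5 on the blood arrays, none of which was well above background. The log2 ratios were 1.91, 0.98 and 1.73 in the TIC fraction, and all 6 blood arrays lay at or below 0, down to -0.40. Again no TIC value overlapped with blood. The log2 difference was 1.60 ± 0.22 against day 10 blood (adjusted p = 0.00025) and 1.82 ± 0.22 against day 0 blood (adjusted p = 0.000135).

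Mmp3, stromelysin 1, which can activate other matrixins, is the third member of the cluster. Its probe was well above background on 1 of 9 arrays, the TIC array of mouse 832, where the Cy5 signal was 69.7. The other TIC arrays gave 47.9 and 54.5, and the blood arrays 43.8 to 49.1. Mmp3 thus stood just above background in 1 TIC sample. That array had the brightest Mmp12 and Mmp13 signals, and also the highest median Cy5 signal over all spots of the 9 arrays (68.7). The log2 ratios of Mmp3 were 0.26, -0.05 and 0.21 on the TIC arrays of mice 832, 833 and 834. Fitted without the filter, it differed by 0.17 ± 0.10 against day 10 blood (adjusted p = 0.233) and by 0.27 ± 0.10 against day 0 blood (adjusted p = 0.0721).

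The array carried 8 genes of the cluster on 9 probes, spread over 415 kb of chromosome 9 (build mm8, from base 7282762 to base 7697370). Only 3 of the 8, Mmp13, Mmp12 and Mmp7 (matrilysin, an epithelial matrixin), were well above background on all 3 TIC arrays. Mmp7 was dim, with Cy5 signals of 59.2 to 130 on TIC arrays and 46.4 to 51.8 on blood arrays. Mmp10 was above background on 2 TIC arrays, while Mmp1a and Mmp20 were above background on none of the 9. Mmp8, the neutrophil collagenase, went the other way in detection: it was well above background on all 6 blood arrays and on 1 TIC array. It was the 1 gene of the cluster seen in blood, and neighbouring genes of the cluster thus differed in where they were detected. Mmp8 and Mmp7 are named here for their position, not by the size of their change.

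Mmp14, the membrane-type matrixin that cuts fibrillar collagen at the cell surface and activates the Mmp2 proenzyme, was measured by 2 probes on chromosome 14. The brighter one, at chr14:53395337-53395396 (mm8), gave Cy5 signals of 1417, 2286 and 836 on the TIC arrays of mice 832, 833 and 834, and 44.3 to 67.5 in blood, where 1 day 0 array was well above background. Here mouse 833 had the brightest TIC signal. The log2 ratios were 0.84, 2.55 and 1.14 in the TIC fraction, -0.30, -0.39 and -0.03 in day 10 blood and -0.77, -0.14 and -0.59 in day 0 blood. No TIC array overlapped with blood. The log2 difference was 1.75 ± 0.40 against day 10 blood (adjusted p = 0.00443) and 2.01 ± 0.40 against day 0 blood (adjusted p = 0.00233).

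The other Mmp14 probe, at chr14:53394143-53394202, was dimmer, with Cy5 signals of 171, 238 and 127 on the TIC arrays and 44.5 to 50.6 in blood. When every probe was fitted on its own, it was also higher in the TIC fraction, by 0.58 ± 0.16 (adjusted p = 0.0131) and 0.52 ± 0.16 (adjusted p = 0.0223) against day 10 and day 0 blood. The 2 probes had the same direction and order of signals among mice and differed in size.

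Mmp2, gelatinase A, which degrades denatured collagen and basement membrane collagen and is a substrate of Mmp14, was above background on none of the 9 arrays. Its Cy5 signals were 50.8 to 53.9 in the TIC fraction, and on the blood arrays 45.0 to 45.8 at day 10 and 44.5 to 47.8 at day 0. A level or fold cannot be given for it from this probe, and its signal does not show that the transcript was absent.

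**Figure D1:**
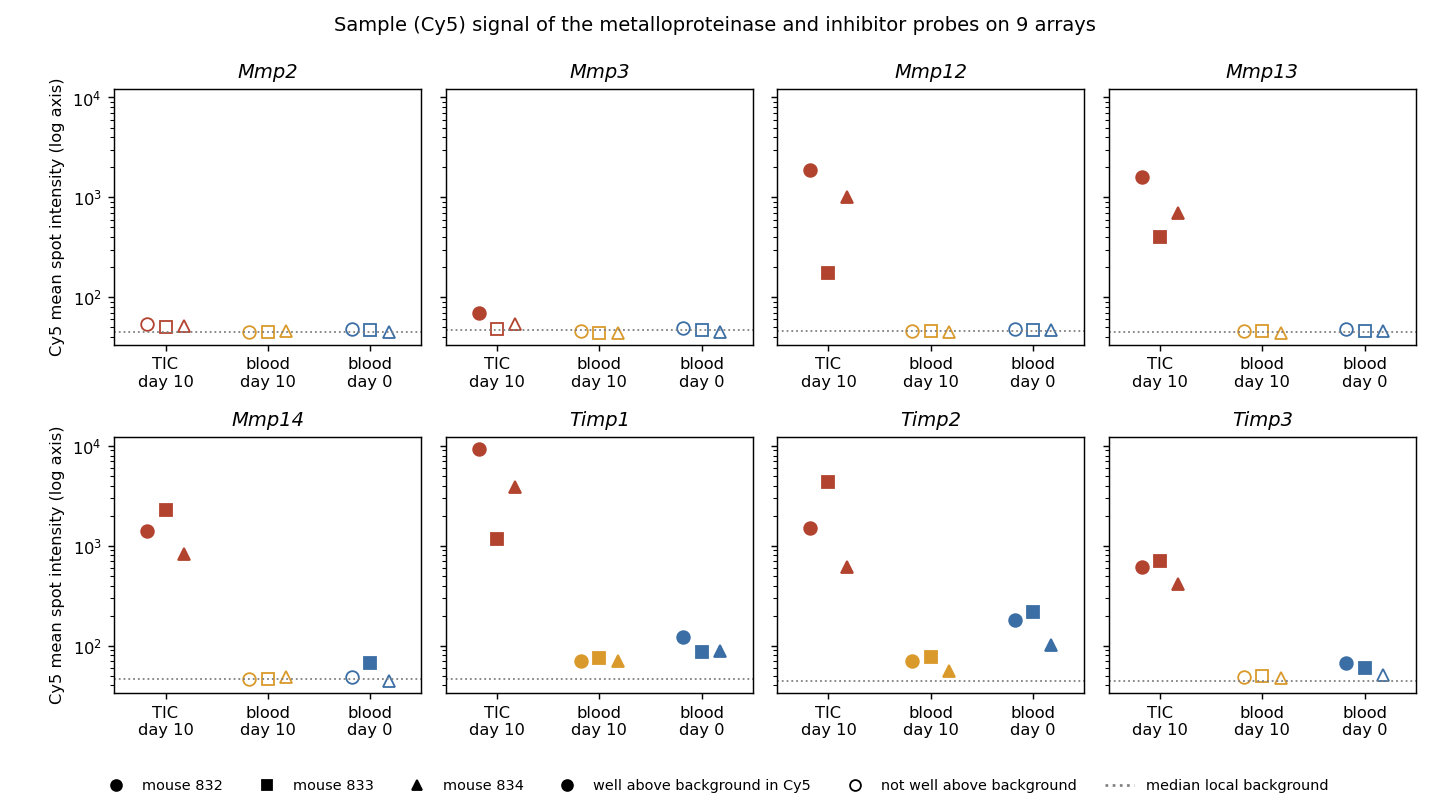
Cy5 mean spot intensity (log axis) of 1 probe for each of the 8 genes on the 9 arrays, grouped as TIC fraction, day 10 blood and day 0 blood, with 1 symbol for each mouse. Filled points are well above background, and the dotted line is the median local background. Mmp12, Mmp13 and Mmp14 rise far above it only on TIC arrays, apart from 1 day 0 value of Mmp14 at 67.5, while Timp1 and Timp2 are above it on all 9 arrays.

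Among the inhibitors, Timp1, a secreted inhibitor of most matrixins with weak action on Mmp14, was measured by 2 probes. The brighter one, at chrX:20031508-20031566 (mm8), gave Cy5 signals of 9374, 1164 and 3839.6 on the TIC arrays of mice 832, 833 and 834. Day 10 blood gave 70.9, 74.4 and 69.7, and day 0 blood 123, 87.3 and 88.0. All 9 arrays were well above background, so Timp1 is one of 2 members with a measured level in every blood sample. The log2 ratios were 0.56, 0.02 and 0.49 in the TIC fraction, -0.85, -1.01 and -0.67 in day 10 blood and -1.54, -1.74 and -0.90 in day 0 blood. TIC and blood values did not overlap, and the log2 difference was 1.20 ± 0.23 against day 10 blood (adjusted p = 0.00198) and 1.75 ± 0.23 against day 0 blood (adjusted p = 0.000259).

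The other Timp1 probe, at chrX:20029738-20029797 and nearer the gene's start, was above background on the TIC arrays (1288, 199 and 504) and on no blood array (43.9 to 49.7). Despite this its log2 ratio differed by only 0.29 ± 0.17 against day 10 blood (adjusted p = 0.16) and by 0.45 ± 0.17 against day 0 blood (adjusted p = 0.0453). Its Cy3 reference signal was 91.1 to 148 on the TIC arrays and 63.4 to 72.4 on the 6 blood arrays, although the same reference RNA was on all 9. Whether Timp1 was called against day 10 blood thus depended on the probe, and the part of the brighter reference channel in it was not tested.

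Timp3, which binds to the matrix and also inhibits Adam17, had TIC values that lay close together. Its Cy5 signals were 615, 707 and 409.9 on the TIC arrays and 47.1 to 67.0 in blood, where 2 day 0 arrays and no day 10 array were well above background. The log2 ratios were 1.24, 1.83 and 1.41 in the TIC fraction, 0.01, 0.13 and 0.03 in day 10 blood and 0.27, 0.16 and 0.13 in day 0 blood. The log2 difference was 1.44 ± 0.15 against day 10 blood (adjusted p = 5.02e-05) and 1.31 ± 0.15 against day 0 blood (adjusted p = 0.000112). Against day 10 blood the single-channel fold was 2.69. This is the observed fold and not a limit, since the mean blood value was 6.27 with and without the dimmest signal put in. Timp3 had the smallest adjusted p of the 6 tested members in both comparisons.

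Timp2, which inhibits matrixins and also bridges the Mmp2 proenzyme to Mmp14 on the cell surface, was the 1 tested member without a call. Its Cy5 signals were 1499, 4373 and 606 on the TIC arrays of mice 832, 833 and 834, 69.8, 77.2 and 55.8 in day 10 blood and 180, 219 and 102 in day 0 blood. By signal alone, all 3 TIC arrays were thus brighter than every blood array. The log2 ratios were -0.27, 2.87 and -0.26 in the TIC fraction, 0.22, 0.26 and -0.07 in day 10 blood and 0.46, 0.98 and 0.54 in day 0 blood. On the ratio scale mouse 833 was above every blood array, while mice 832 and 834 were below every one. The log2 difference was 0.65 ± 0.73 against day 10 blood (adjusted p = 0.456) and 0.12 ± 0.73 against day 0 blood (adjusted p = 0.891). Without the TIC array of mouse 833 it was -0.40 against day 10 blood (adjusted p = 0.0534) and -0.92 against day 0 blood (adjusted p = 0.000873), a call in the opposite direction.

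**Figure D2:**
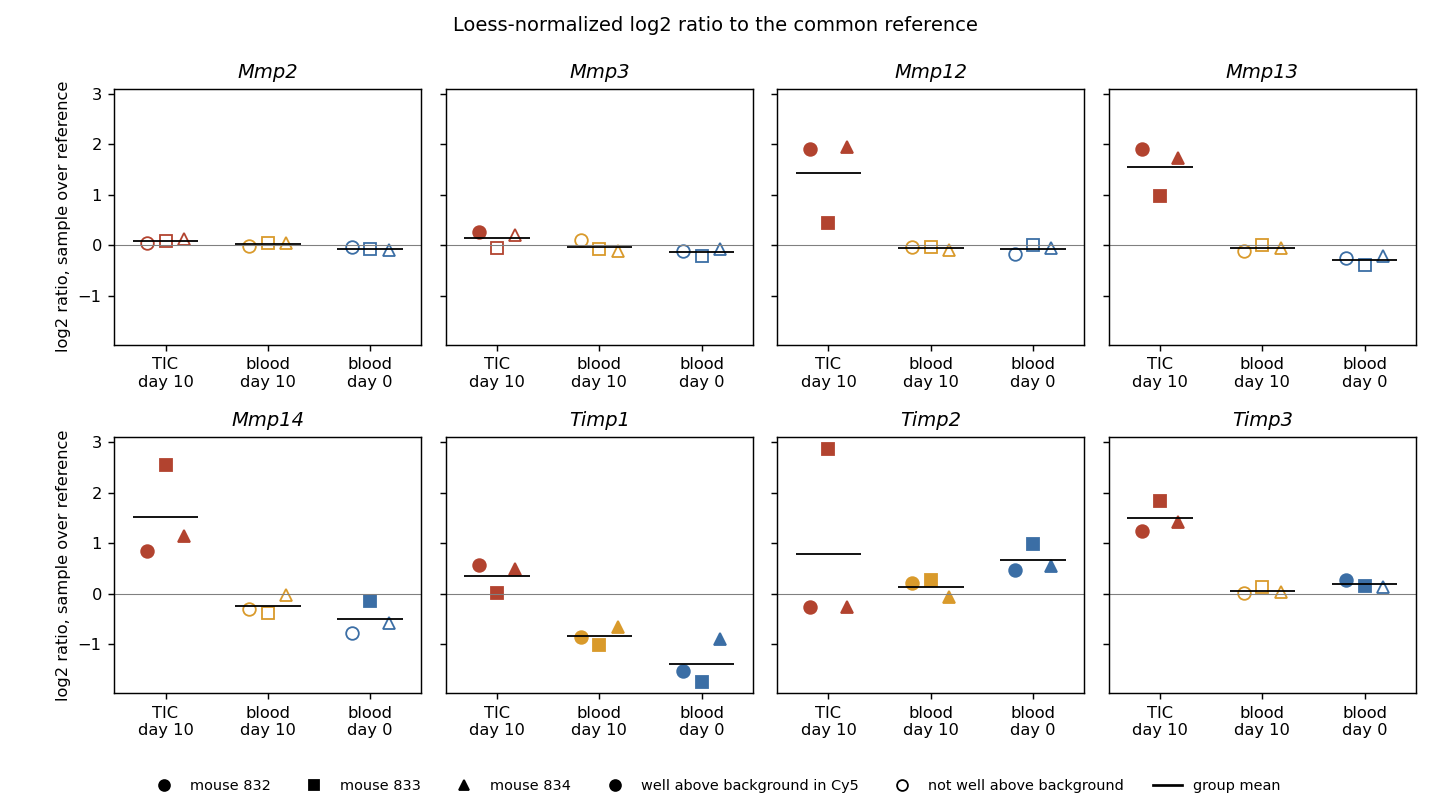
Loess-normalized log2 ratio of sample over common reference for the same probes, with TIC fraction, day 10 blood and day 0 blood from left to right, 1 symbol for each mouse and a line at each group mean. The TIC points of Timp2 split into 2.87 for mouse 833 and -0.27 and -0.26 for mice 832 and 834, while those of Timp3 lie together between 1.24 and 1.83.

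The members did not shift alike on the TIC array of mouse 833. Relative to the mean of the other 2 TIC arrays, its log2 ratio was 3.14 higher for Timp2, 1.56 higher for Mmp14 and 0.51 higher for Timp3. It differed by -1.48 for Mmp12, -0.85 for Mmp13 and -0.50 for Timp1. The middle 90% of all tested genes lay between -1.33 and 1.20, and only 10 of 14259 genes, Timp2 included, shifted upward by as much as Timp2. Mmp14 was among the top 381 genes, and 511 genes shifted downward by as much as Mmp12.

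Without this array the 5 called members were still called in both comparisons. Their log2 differences against day 10 and day 0 blood were then 1.99 and 2.0 for Mmp12, 1.88 and 2.11 for Mmp13, 1.23 and 1.49 for Mmp14, 1.36 and 1.92 for Timp1, and 1.27 and 1.14 for Timp3. The proteases of the chromosome 9 cluster were thus further from blood without mouse 833, and Mmp14 was nearer to it. Marker genes of cell types also differed on this array. The median log2 ratio of 10 macrophage markers on the array was 0.69, 0.26 and 0.58 on the TIC arrays of mice 832, 833 and 834, that of 10 fibroblast and pericyte markers -0.80, -0.21 and -0.75, and that of 9 hepatoma and hepatocyte markers 1.87, 1.20 and 1.64. The mean ratio of the fibroblast and pericyte markers was -0.75 to -0.59 on these arrays, and single markers went either way. Acta2, a smooth muscle actin of pericytes and activated fibroblasts, had ratios of -2.64, -0.02 and -2.49, while Thy1 had -2.23, -3.01 and -2.11. Both were singled out after their values were seen. The part of the marker genes in the members' values was not tested.

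Between the bloods, no member passed the threshold. At day 10 against day 0, none of the 6 tested members and none of the 14259 genes passed (background 0%), while 1 member and 2105 genes had an unadjusted limma p under 0.05. Over all genes other settings did make calls: 1057 genes without the TIC array of mouse 833, 747 with only the blood arrays in the fit, 757 with the deposited log ratio and 591 with Cy5 alone, and no member was among them. The member with the small unadjusted p was Timp1, with a log2 difference of 0.55 ± 0.23 (adjusted p = 0.324), higher at day 10 in 3 of 3 mice, by 0.69, 0.74 and 0.23 in mice 832, 833 and 834. The day 10 and day 0 values of Timp1 overlapped, its raw Cy5 signal was lower at day 10 in 3 of 3 mice, and median centring turned the difference to -0.40, so its direction depended on the scaling. Timp2 differed by -0.52 ± 0.73 (adjusted p = 0.871) and was lower at day 10 in 3 of 3 mice, by values from -0.72 to -0.24. Mmp12 and Mmp13 were not well above background on any blood array. These p values do not show that the bloods were alike, and this SE also takes in the spread of the TIC arrays.

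**Figure D3:**
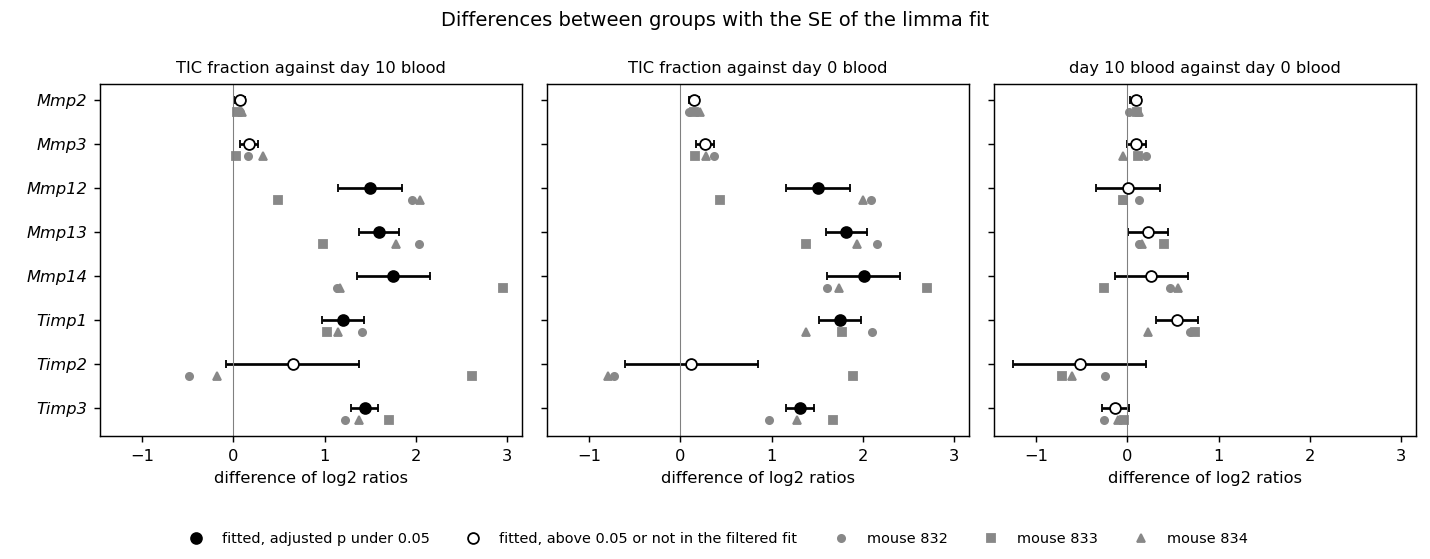
Fitted difference of log2 ratios with its SE for each of the 8 genes in 3 comparisons (black, filled where the adjusted p is under 0.05; Mmp2 and Mmp3 from the fit without the filter), and the difference within each mouse (grey). The 5 called members lie to the right of 0 in all 3 mice in both TIC comparisons, and Timp2 does so in mouse 833 alone.

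How large the differences were depended on how the arrays were scaled. Loess sets the ratio to 0 on average at each brightness of an array, although the TIC samples were brighter than blood over much of the array. With each array centred on its median instead, the median of all tested genes moved to 1.38 against day 10 blood and 1.16 against day 0 blood, and 95.7 and 92.0% of all calls were in the higher direction. All 6 members were then called higher, beside 72 and 66.1% of all genes, while 3.25 and 5.74% were called lower. The log2 differences against day 10 blood, after subtracting the median of all genes under the same scaling, were 4.05 for Timp1 (1.13 with loess), 2.47 for Timp2 (0.58 with loess, no call) and 2.83 for Mmp14 (1.69 with loess). For Mmp12, Mmp13 and Timp3 they were 1.62, 1.94 and 1.59, against 1.43, 1.53 and 1.37 with loess.

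The size for Timp1 thus changed most. With the deposited log ratio the differences above the all-gene median of 0.85 were 0.91 for Timp1, 4.0 for Mmp14 and 3.52 for Mmp13. With Cy5 alone they were 0.71 for Timp1, 1.91 for Mmp14 and 1.32 for Mmp13, above a median of 0.21. Mmp12, Mmp13, Mmp14, Timp1 and Timp3 were higher than blood and called under each of these scalings. Among all tested genes, 88.1% had a smaller loess difference against day 10 blood than Timp1 and 94.3% a smaller one than Mmp14, so many other genes rose as far or further.

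**Figure D4:**
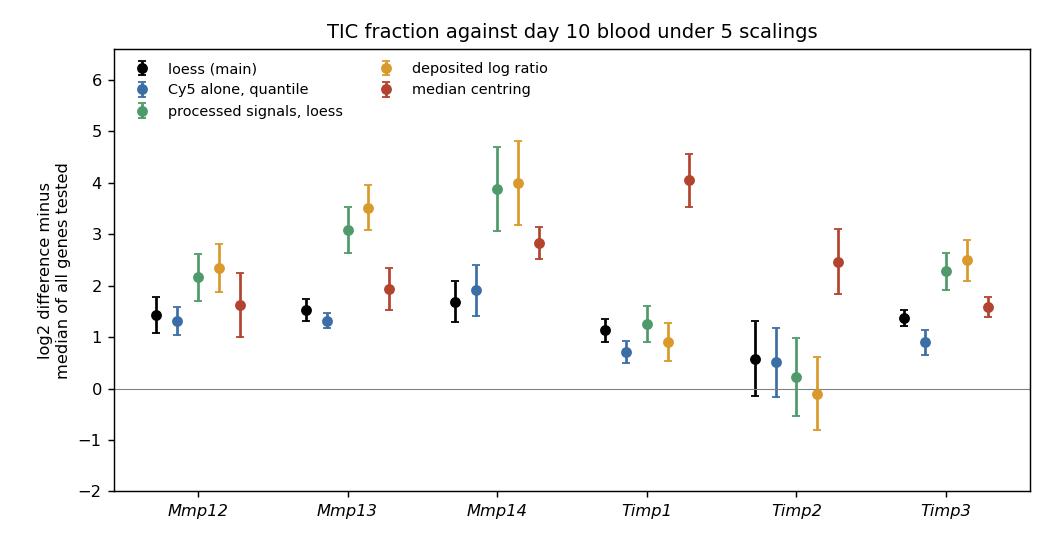
Log2 difference of the TIC fraction against day 10 blood, minus the median of all genes tested, for the 6 tested members under 5 scalings of the same arrays; bars are the SE of each fit. Timp1 ranges from 0.71 with Cy5 alone to 4.05 with median centring, and Timp2 from -0.10 with the deposited log ratio to 2.47 with median centring.

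The arrays lay on 3 slides, and no slide held both TIC and day 10 blood arrays. Slide 1 held the TIC array of mouse 832, slide 2 the other TIC arrays with the day 0 arrays of mice 832 and 833, and slide 3 the remaining 4 blood arrays. With slide as a block, 3 members were called against day 10 blood: Timp1 (1.84, adjusted p = 0.00713), Timp3 (1.48, adjusted p = 0.00795) and Mmp13 (1.52, adjusted p = 0.0248). Mmp12 (1.28, adjusted p = 0.19) and Mmp14 (1.96, adjusted p = 0.0796) then missed the threshold. With slide and mouse together as blocks, only Timp1 passed (1.53, adjusted p = 0.0469). Over all 14259 genes, 1500 were called higher with slide as a block and 215 with slide and mouse, against 4910 without blocks. Against day 0 blood all 5 were still called with slide as a block, and 4 with slide and mouse together, where Mmp12 (1.02, adjusted p = 0.175) missed the threshold. Over all genes, 3080 and 1472 were then called higher, against 4525 without blocks and 1025 within slide 2 alone. Within slide 2 alone, 3 were called: Timp1 at 1.90 (adjusted p = 0.0174), Timp3 at 1.40 (adjusted p = 0.0247) and Mmp13 at 1.68 (adjusted p = 0.0323), while Mmp12 was at 1.28 (adjusted p = 0.161) and Mmp14 at 2.31 (adjusted p = 0.0539). All these values kept the direction of the fit without blocks.

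Of 16 further matrixin genes on the array, 7 were tested, and 2 were higher and 3 lower in the TIC fraction than in day 10 blood, with a median of -0.27, where 34.4% of all genes tested were higher and 33.2% lower. With median centring 3 of the 7 were higher and 0 lower, beside 72 and 3.25% of all genes. Mmp17, a membrane-anchored matrixin linked to the membrane by a lipid, differed by -3.24 ± 0.26 (adjusted p = 1.22e-05), but by -0.15 with median centring. Another Mmp17 probe, not used in the fit, was above background on no array. Mmp19 differed by -0.59 ± 0.09 (adjusted p = 0.000629), although it was above background on only 1 array of each group. Mmp24, another membrane-type matrixin, was above background on all 3 TIC arrays and no blood array by its brighter probe. Its single-channel fold against day 10 blood was 1.23 (adjusted p of the ratio fit = 0.00449). The dimmer Mmp24 probe was above background on 1 TIC array and no blood array. Mmp9, gelatinase B, a protease of neutrophil granules named here as the other gelatinase, differed by -0.27 ± 0.28 (adjusted p = 0.405).

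Among 9 tested genes of other inhibitors and membrane regulators, 3 were higher and 5 lower, where 34.4% of all genes were higher and 33.2% lower. Lrp1, a receptor that clears protease and inhibitor complexes, was 1.19 ± 0.14 higher (adjusted p = 8.86e-05). Cd9, a tetraspanin abundant on platelets, differed by -5.00 ± 0.38 (adjusted p = 8.32e-06), and this direction turned with median centring, to 1.14. Cav1, which encodes caveolin, was called lower (-1.03 ± 0.10, adjusted p = 4.1e-05) although it was above background on all 3 TIC arrays and no day 10 blood array, and it turned to 0.69 with median centring. Its call therefore has no settled direction. None of the 9 was called lower with median centring, where 3.25% of all genes were.

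The plasminogen system, whose product plasmin can activate matrixin proenzymes, had 8 tested genes, of which 6 were higher and 1 lower, with a median of 0.76, where 34.4% of all genes were higher. The count depended on the scaling: 4 of the 8 were higher with an offset of 16, with Agilent processed signals and with the deposited log ratio, 5 with Cy5 alone and 7 with median centring. With median centring 72% of all genes were higher. Plat and Plau, the tissue and urokinase plasminogen activators, were above background on all 3 TIC arrays and no day 10 blood array. At day 0, Plat was above background on all 3 blood arrays and Plau on none. Plat was higher by 2.39 ± 0.22 on the log2 scale (adjusted p = 2.33e-05), and Plau was higher with a single-channel fold of 1.67 (adjusted p of the ratio fit = 0.000544). Serpinf2, the plasmin inhibitor made by hepatocytes, was higher by 1.90 ± 0.17 (adjusted p = 1.94e-05), also with no day 10 blood array well above background. These 3 genes were called higher in all 6 scalings run. Against day 0 blood 4 of the 8 were higher and 0 lower.

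Of 13 tested ADAM and ADAMTS proteases, relatives that shed membrane proteins or cut proteoglycans, 2 were higher and 4 lower. Over all genes tested, 34.4% were higher and 33.2% lower. Adam15 was 1.76 ± 0.13 higher (adjusted p = 7.32e-06). Adamts1, which cleaves proteoglycans, was higher with a single-channel fold of 1.37 (adjusted p of the ratio fit = 0.00352), and no blood array was above background. Adam28 was called lower (-0.74 ± 0.15, adjusted p = 0.00234) although all 3 TIC arrays and no day 10 blood array were above background. In all, 3 of the 4 lower calls in this list, Adam17, Adam19 and Adam28, had that pattern. At day 0, Adam17 and Adam19 were above background on all 3 blood arrays and Adam28 on 1. None of the 13 was called lower with median centring, where 3.25% of all genes were.

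Among 18 tested matrix genes, which encode proteins that matrixins cut or bind, 7 were higher and 7 lower than in day 10 blood. Over all genes tested, 34.4% were higher and 33.2% lower. Dcn, the small proteoglycan decorin, was higher by 3.21 ± 0.17 on the log2 scale (adjusted p = 2.01e-06) and Fn1, fibronectin, by 1.75 ± 0.13 (adjusted p = 7.76e-06), both called in all 6 scalings and with no day 10 blood array well above background. At day 0, 1 blood array was well above background for Dcn and all 3 for Fn1. Col6a2, a chain of the microfibrillar collagen VI, differed by -3.83 ± 0.27 (adjusted p = 6.19e-06) and was lower in all 6 scalings, by -6.99 to -0.78. With median centring 12 of the 18 were higher and 1 lower, beside 72 and 3.25% of all genes. The balance of this list thus moved with the scaling, as that of all genes did. In the loess fit no gene of the 5 lists was called between the bloods.

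**Figure D5:**
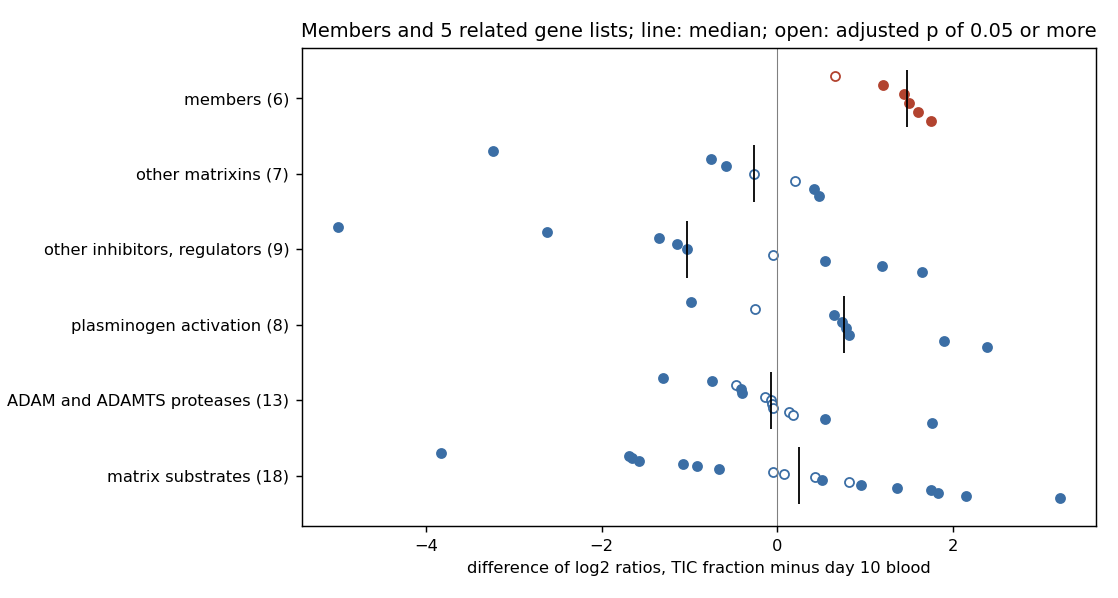
Difference of log2 ratios, TIC fraction minus day 10 blood, for the 6 tested members (red, top row) and for the tested genes of 5 related lists (blue), with a line at each median and open symbols where the adjusted p was 0.05 or more. The members' median is 1.47, that of the plasminogen list 0.76 and that of the other matrixins -0.27.

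The labelled cell content was checked against marker genes. Of 10 macrophage markers, 9 were well above background on all 3 TIC arrays, against 2 in day 10 blood and 4 in day 0 blood, and their mean log2 ratio per array was 0.52 to 0.61 in the TIC fraction, -0.07 to 0.01 in blood of day 10 and -0.13 to -0.01 at day 0. Of 9 tested, 5 were higher and 0 lower than in day 10 blood, where 34.4% of all genes tested were higher and 33.2% lower. Marco was above background on 1 TIC array. All 4 whole leukocyte markers were above background on all 9 arrays, and 3 of 4 were lower in the TIC fraction than in day 10 blood with loess. All 4 were higher with median centring, as were 72% of all genes.

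Markers of other cells were present in the TIC fraction too. Of 9 hepatoma and hepatocyte markers, 7 were above background on all 3 TIC arrays, against 2 on all 3 arrays of each blood group. Their mean ratio per array was 1.29 to 1.50 in the TIC fraction, -0.02 to 0.07 in blood of day 10 and -0.08 to 0.11 at day 0. Of 8 tested, 6 were higher and 2 lower than in day 10 blood, where 34.4% of all genes were higher and 33.2% lower. The 2 lower were Ahsg (-3.51 ± 0.23) and H19 (-1.38 ± 0.16). Of 10 fibroblast and pericyte markers, 8 were above background on all 3 TIC arrays, against 2 in each blood group. Their mean ratio was -0.75 to -0.59 in the TIC fraction, -0.34 to -0.29 in blood of day 10 and -0.71 to -0.45 at day 0. Of 8 tested, 3 were higher and 5 lower than in day 10 blood with loess, and 7 higher and 0 lower with median centring. Of 7 endothelial markers 4, Cdh5, Kdr, Emcn and Vwf, were above background on all 3 TIC arrays and Pecam1 on 2, while Tek and Tie1 were on none of the 9. Of 5 tested, 0 were higher and 2 lower than in day 10 blood. Platelet and erythroid markers were lower in the TIC fraction, 5 of 5 and 6 of 6 tested. Of 8 tested neutrophil markers, 0 were higher and 5 lower than in day 10 blood with loess, and 0 were lower with median centring. On all 3 TIC arrays 6 of 9 neutrophil markers were still above background. Which of these cells carried the members' signal was not tested.

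Nearest profiles over the 9 arrays were sought among the tested genes with a gene symbol, leaving out accessions, RIKEN clones and Gm numbers. The measure was the root mean square difference of log2 ratios after each gene was centred on its own mean. These profiles describe likeness in these arrays only. The nearest genes were Ang2 and Tm2d3 to Mmp12 (0.07 each), Snrpb (0.09) and Cisd3 (0.11) to Mmp13, Anxa4 (0.18) and P4hb (0.19) to Mmp14, and Eml1 (0.09) and Slc25a13 (0.10) to Timp3. Timp1 was nearest to Prdx3 (0.20) and Ifitm3 (0.21). Timp2 had the most distant neighbours, Csnk1d (0.30) and Hnrnpm (0.31), which were also high on the TIC array of mouse 833, at 2.03 and 1.40, against -0.21 and -1.29 in mouse 832. Among the members themselves, Mmp12 and Mmp13 were nearest to each other (0.24), and Timp2 was farthest from any other (0.89, to Timp3).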

How the data were processed

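Expression of 9 samples was measured on two-colour Agilent arrays, and the authors deposited scanner tables with spot intensity, local background intensity and a log10 ratio (Cy5 to Cy3). Agilent Feature Extraction 10.5.1.1 made them, per the file headers; version 9.1.3.1 stands in the submitters' processing notes. The deposited value table held the same log10 ratios (sample over reference), with a median of 0 on each array.

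Background was corrected by normexp (offset 50) after spots with non-uniform local background, 0 to 103 an array, were set aside. Log2 ratios were normalized by loess within arrays, with control and outlier spots at weight 0. Spots of a probe were averaged, 20011 probes that at least 3 of 9 arrays showed well above background in Cy5 were kept, and the brightest probe of each gene was used. The test was limma 3.58.1 under R 4.3.3 (lmFit, eBayes; group as the only term, all 9 arrays), with Benjamini-Hochberg adjustment over 14259 genes and a threshold of 0.05. Only the limma fit and its adjustment were run on simulated log ratios, and the steps before them were not simulated. The members, the gene lists and the settings were chosen with earlier results of these data known.

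Named genes are all 8 members, up to 3 genes a list with the smallest p against day 10 blood, and the 2 nearest profiles of each tested member; others are named as exceptions. Probe positions are those of the files (mm8), and gene names were updated through RefSeq accessions for 23477 probes. Exon or UTR positions of the probes were not used here. No Cy5 spot was saturated. The number of arrays limits the precision. The p-values of the main fit rest on a spread pooled over the 3 groups, each of the same 3 mice, and moderated over all genes. The main fit does not use that the groups share their mice.

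Same-numbered arrays come from the same mouse. Their deviations from the group means correlated at 0.186, 0.345 and 0.243 between the bloods, and at -0.06 to 0.06 between the TIC fraction and blood. Alternatives covered background correction, scaling, filter, probe choice, mouse and slide as blocks, and leaving out each array.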

Additional observations from a re-analysis of the deposited data

Results flagged for a closer look

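The common reference should give the same Cy3 signal on every array. For the Timp1 probe nearer the gene's start, the median Cy3 signal of the 3 TIC arrays was 145, while the highest value on the 6 blood arrays was 72.4. Signal in this channel was thus above that of the blood arrays, in data outside the sample measurement. The brighter Timp1 probe had 423 to 593 in Cy3 on the TIC arrays and 601 to 674 on the blood arrays. Other members also had Cy3 signals above every blood array on all 3 TIC arrays, by smaller margins. These were Mmp12 (68.05 to 87.2, blood up to 63) and Mmp13 (75.8 to 78.7, blood up to 73.8). Timp2 (221 to 252, blood up to 219.6) and the brighter Mmp14 probe (120.8 to 136.6, blood up to 119.7) did so too. For Mmp2, Mmp3, Timp3 and the dimmer Mmp14 probe the ranges overlapped. What this means for the members' ratios was not tested.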

How the results depend on the processing

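Each member's 3 differences were recomputed under up to 25 alternatives. Of these values, 409 kept their direction and their side of the threshold, 9 lost the call, 2 gained it and 12 changed sign. The 5 called members kept their direction throughout, at 0.64 to 3.19 for Mmp12, 1.20 to 4.36 for Mmp13, 1.17 to 4.85 for Mmp14, 0.74 to 5.44 for Timp1 and 1.11 to 3.33 for Timp3 against day 10 blood. Of the 6 members, 3 were called against day 10 blood with slide as a block and 3 against day 0 blood within slide 2. With mouse and slide as blocks, 1 was called against day 10 blood. Over all 14259 genes these fits called 4277, 3492 and 1112. The main fit called 9639 against day 10 blood and 9324 against day 0 blood. In these fits the TIC array of mouse 832 carries no weight, and the cause of the lost calls was not tested. The filter on all 9 arrays left only Timp1 and Timp2 to test, and 1 was called in each TIC comparison. The mouse number alone as a replicate block changed no call of a member: 5, 5 and 0 were called. Leaving out each array in turn gave 5 calls against day 10 blood, 5 to 6 against day 0 blood and 0 between the bloods; Timp2 against day 0 blood then ranged from -0.92 to 0.65 and Mmp12 between the bloods from -0.04 to 0.05.

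Changes of sign concerned Timp2 and the bloods. Timp2 went to -0.40 against day 10 blood and to -0.92 against day 0 blood without the TIC array of mouse 833, and against day 0 blood also to -0.38 with Agilent processed signals and to -0.26 with an offset of 16. Median centring called Timp2 higher, at 3.85 and 2.81. Between the bloods, Mmp12 went to -0.03 with Cy5 alone, -0.002 with normexp on all spots, -0.01 with slide as a block and within slide 3, and -0.04 without the day 0 array of mouse 832. Mmp14 went to -0.05 with the deposited log ratio and -0.11 with median centring, and Timp1 to -0.40 with median centring; none of these blood differences was called. Signals near background limit what can be said of Mmp2, Mmp3 and of Mmp12 and Mmp13 in blood.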
